A study of Mus musculus with 4 samples.

Results

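Mbp, Prx, Pmp22, Sox10, Gap43, Ngfr and S100b, genes of myelin and of the Schwann cell response to nerve injury, were followed in sections of mouse leg muscle before and after injury. They were found by symbol and are 7 of the 32285 genes counted. The data are 4 Visium sections, in which RNA is captured on an array of spots that carry position barcodes and unique molecular identifiers (UMIs). A spot is a small region that can hold several cells or part of one. All 4 sections came from tibial muscle of Nse-Bmp4 mice on the C57BL/6 strain, 6-8 weeks old, in which a Bmp4 cDNA is driven by the neuron-specific enolase promoter. This is a model of heterotopic ossification, in which cartilage and bone form in muscle. The section of day 0 was uninjured, and those of days 1, 3 and 7 followed an injection of cardiotoxin, a snake toxin that kills muscle fibres. The transgene was thus present in the control too, and no section came from a mouse without it. The labels say that 3 tibial muscles were mixed per group, and how these relate to a section was not stated. There was 1 section per day, so no value has a replicate check, no test was made, and the 95% intervals given here cover counting error only.

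Schwann cells wrap the axons of peripheral nerves, and those around larger axons build myelin, a stack of compacted membrane. After nerve injury they are known to lower their myelin genes and to take on a repair state with growth-associated and neurotrophin genes, and to myelinate again as axons regrow. Mbp encodes myelin basic protein of compact myelin, Prx encodes periaxin, which organises the Schwann cell surface outside compact myelin, and Pmp22 encodes a membrane protein of compact myelin that other cells also make. Sox10 encodes the transcription factor that maintains Schwann cell identity. Gap43 encodes a growth-associated protein, Ngfr the low-affinity neurotrophin receptor p75, and S100b a calcium-binding protein of Schwann cells that chondrocytes make as well.

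In the RefSeq table of GRCm38.p6, the assembly that mm10 also names, Prx lies on chromosome 7 from 27499305 to 27520041, Pmp22 on chromosome 11 from 63128982 to 63159547, Ngfr on chromosome 11 from 95568818 to 95587698, and S100b on chromosome 10 from 76253836 to 76261319. Sox10 lies on chromosome 15 from 79154913 to 79164490 and Gap43 on chromosome 16 from 42248552 to 42340651. UMIs were counted per gene, so the starts of one gene cannot be told apart. RefSeq start windows were held for 4 of the genes, in 7 windows. The 250 bases before the start are shown for a pair whose RNA lay together in the sections, Prx and Pmp22, and for S100b, which parted from them at day 7. Capitals mark the letters GCGTGGG, the core of the EGR2 motif, and CCAAT, each searched on both strands. These letters were chosen after values of the genes had been seen. The Prx window is chr7:27499074-27499323, the Pmp22 window, the first of its 4, is chr11:63128732-63128981, and the S100b window is chr10:76253586-76253835, all on the plus strand. The Prx window belongs to a transcript that starts inside the outer bounds of the gene given above.
Prx: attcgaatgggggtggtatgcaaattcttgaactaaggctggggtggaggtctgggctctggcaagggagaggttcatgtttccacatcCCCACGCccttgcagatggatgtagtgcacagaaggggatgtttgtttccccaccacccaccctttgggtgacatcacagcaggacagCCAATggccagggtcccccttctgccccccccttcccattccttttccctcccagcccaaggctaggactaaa
Pmp22: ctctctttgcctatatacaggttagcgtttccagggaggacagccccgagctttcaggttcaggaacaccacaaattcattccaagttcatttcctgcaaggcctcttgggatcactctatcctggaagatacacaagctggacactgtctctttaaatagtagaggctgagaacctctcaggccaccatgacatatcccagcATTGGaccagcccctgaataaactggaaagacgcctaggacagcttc
S100b: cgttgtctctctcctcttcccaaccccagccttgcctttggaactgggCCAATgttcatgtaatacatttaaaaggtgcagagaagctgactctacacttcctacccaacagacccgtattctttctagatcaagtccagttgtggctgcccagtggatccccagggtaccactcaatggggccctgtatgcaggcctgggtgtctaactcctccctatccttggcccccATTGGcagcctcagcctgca
GCGTGGG was found in 1 of the 7 windows, that of Prx, on the minus strand and starting 161 bases before the start, and in 4.3% of all 32851 windows. CCAAT was found in 4 of the 7, against 33.8% of all. ACAAAG or ACAATG, letters of SOX motifs, were in 0 of the 7 and in 25.2% of all. A match is a description of letters, not a bound site.

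The sections held 2107, 2667, 3029 and 3032 spots and 43871586, 16777832, 56113066 and 41832640 UMIs on days 0, 1, 3 and 7. The day 1 section was the shallowest, with a median of 6322 UMIs per spot against 12119.5 to 21029 in the others. Sections shared 1539 to 2311 barcodes pairwise, since arrays carry the same set of barcodes. Adult myofibre genes such as Acta1 and Ckm held 18.6% of the UMIs on day 0 and 5.86% to 11.1% afterwards. Levels are given as CPM, the UMIs of a gene scaled to the total of its section. The median gene was above its day 0 CPM by 0.15, 0.58 and 0.65 on the log2 scale on days 1, 3 and 7. With TMM scaling, which sets that median near 0, each log2 ratio is lower by 0.21, 0.55 and 0.61 on days 1, 3 and 7. Fewer Schwann cells and less RNA per Schwann cell cannot be told apart in these sums.

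Mbp and Prx were lowest at day 3, and by CPM their day 7 levels were close to those of day 0. Mbp had 1592, 568, 1005 and 1405 UMIs on days 0, 1, 3 and 7, or 36.3, 33.9, 17.9 and 33.6 CPM. Day 3 stood apart, and days 1 and 7 could not be told apart. The log2 ratio of Mbp to day 0 was -0.10 (95% interval -0.24 to 0.04) on day 1, -1.02 (-1.13 to -0.90) on day 3 and -0.11 (-0.22 to -0.01) on day 7. Prx was also lowest on day 3, with 260, 80, 180 and 245 UMIs, or 5.93, 4.77, 3.21 and 5.86 CPM. Its log2 ratio was -0.31 (-0.69 to 0.05), -0.89 (-1.17 to -0.61) and -0.02 (-0.27 to 0.24). With TMM both were below day 0 at day 7, Mbp at -0.72 and Prx at -0.62, and still lowest at day 3, at -1.57 and -1.43.

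Pmp22 was lowest on day 1, not on day 3. It had 4449, 1029, 4902 and 5426 UMIs, or 101, 61.3, 87.4 and 130 CPM. Its log2 ratios were -0.73 (-0.82 to -0.63), -0.22 (-0.27 to -0.16) and 0.36 (0.30 to 0.41). The day 7 ratio changed sign with the scaling, to -0.25 with TMM and -0.28 with DESeq2 size factors.

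Sox10 had 87, 22, 68 and 130 UMIs, or 1.98, 1.31, 1.21 and 3.11 CPM. The log2 ratio was -0.60 (-1.34 to 0.09), -0.71 (-1.19 to -0.24) and 0.65 (0.25 to 1.06). Day 7 was the highest section, and days 1 and 3 could not be told apart. Its day 7 ratio was the same as that of the median gene, and 0.04 with TMM.

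Gap43 and Ngfr were scarce in every section. Gap43 had 38, 7, 58 and 68 UMIs, or 0.87, 0.42, 1.03 and 1.63 CPM, and its log2 ratios were -1.05 (-2.46 to 0.13), 0.26 (-0.36 to 0.88) and 0.91 (0.31 to 1.52). Ngfr had 66, 12, 86 and 99 UMIs, or 1.5, 0.72, 1.53 and 2.37 CPM, and its log2 ratios were -1.07 (-2.10 to -0.17), 0.03 (-0.45 to 0.51) and 0.65 (0.19 to 1.13). For both, day 1 was the lowest section and day 7 the highest. With TMM their day 7 ratios were 0.30 and 0.04, and their day 3 ratios turned to -0.29 and -0.52.

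S100b differed from the other 6 genes in size at day 7. It had 101, 12, 84 and 701 UMIs, or 2.30, 0.72, 1.5 and 16.8 CPM. The log2 ratios were -1.69 (-2.69 to -0.82), -0.62 (-1.06 to -0.19) and 2.86 (2.56 to 3.18), so that day 7 was 7.28-fold above day 0. With TMM the day 7 ratio was 2.26.

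**Figure D1:**
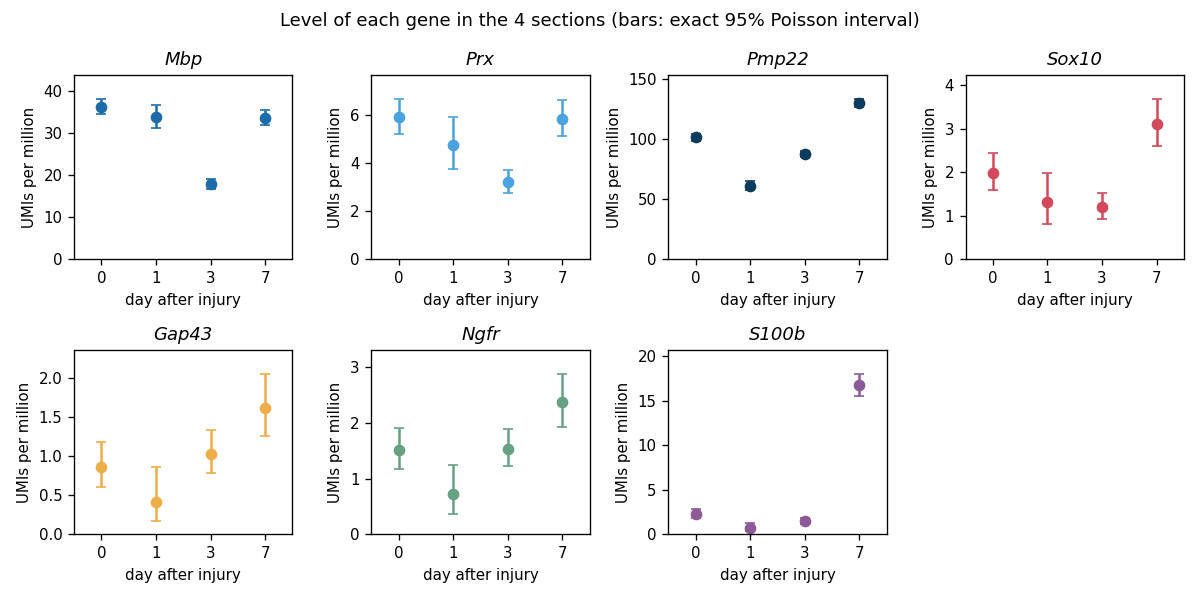
CPM in the section (vertical axis, starting at 0) against day after injury for the 7 genes, with exact 95% Poisson intervals and 1 section per day. Mbp and Prx are lowest on day 3, Pmp22 on day 1, and S100b stands at 16.8 on day 7 against 0.72 to 2.30 on the other days.

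Of the 7 genes, 3 (Gap43, Ngfr and S100b) were at least 2-fold below day 0 on day 1, against 11.4% of the 15091 genes with at least 10 UMIs over both sections, but these 3 had 12 or fewer UMIs there. On day 3, 1 of 7 (Mbp) was at least 2-fold lower, against 8.26% of all genes. On day 7, 0 of 7 were at least 2-fold lower (2.13% of all genes) and 1 of 7, S100b, was at least 2-fold higher (32.7% of all genes). None was at least 2-fold higher on days 1 and 3, where 17.4% and 33.3% of all genes were. With TMM, 3, 4 and 0 of 7 were at least 2-fold lower, against 15.1%, 16.4% and 6.62% of all genes, and 0, 0 and 1 at least 2-fold higher, against 13.4%, 19.8% and 15.7%. The 3 added on day 3 were Prx at -1.43, Sox10 at -1.26 and S100b at -1.17. The median log2 ratio of the 7 genes was -0.73, -0.62 and 0.65, against 0.15, 0.58 and 0.65 over all genes tested.

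Other nerve genes, taken from lists by role, gave the surroundings of these changes. The counts of each list stand against the shares over all genes on days 1, 3 and 7. By CPM 11.4%, 8.26% and 2.13% of all genes were at least 2-fold lower, and 17.4%, 33.3% and 32.7% higher. With TMM these shares were 15.1%, 16.4% and 6.62%, and 13.4%, 19.8% and 15.7%. In a list of 11 further myelin genes, 3, 5 and 0 were at least 2-fold lower on days 1, 3 and 7, and 1, 0 and 2 were at least 2-fold higher. Its median log2 ratio was -0.56, -0.36 and 0.26, and -0.77, -0.90 and -0.35 with TMM. The 5 lower on day 3 were Ncmap at -2.47, the tight junction gene Cldn19 at -2.07, Pllp at -1.84, and the myelin lipid enzymes Ugt8a at -2.50 and Fa2h at -1.40. Mag, which encodes an adhesion protein between Schwann cell and axon, was at 0.43 (-0.08 to 0.96), and Drp2, a partner of periaxin, was at 0.76 (0.51 to 1.01). With TMM, Mag was at -0.12 and Drp2 at 0.21.

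Of the list of Schwann cell genes, 2 of 10, 2 of 11 and 0 of 10 tested genes were at least 2-fold lower on days 1, 3 and 7, and 0, 2 and 4 at least 2-fold higher. With TMM, 3, 5 and 1 were lower and 0, 2 and 0 higher. The median log2 ratio was -0.49, -0.37 and 0.47 by CPM. The pair higher on day 3 were Erbb3, the neuregulin receptor, at 1.67 and Scn7a, a sodium channel gene, at 1.78. The nerve-rich spots described below, which hold the most myelin RNA for their depth, held 7 of the 441 Erbb3 UMIs of day 3, and Erbb3 CPM there was 1.30 times (0.52 to 2.70) that of the other spots. On day 0 that ratio was 5.63 (2.62 to 10.8). At day 7 it was 5.07 (2.91 to 8.27). Erbb3 and the other genes outside the 7 whose UMIs in these spots are given were picked after values had been seen.

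Among genes of the control of myelination, 3 of 12, 1 of 13 and 0 of 13 were at least 2-fold lower on days 1, 3 and 7, and 1, 4 and 6 at least 2-fold higher. With TMM, 4, 5 and 0 were lower and 1, 2 and 3 higher, so that on day 3 more were lower than higher. Sh3tc2, a gene of Schwann cell endosomes that is mutated in a demyelinating neuropathy, had 107, 12, 23 and 113 UMIs, with a log2 ratio of -2.57 on day 3. Nrg1, whose product is the ligand of ERBB3, had 0, 3, 155 and 14 UMIs, so day 3 stood alone. Egr2, the transcription factor of myelination, had 43, 25, 147 and 99 UMIs. Of the 147 Egr2 UMIs of day 3, 3 were in nerve-rich spots, where 6 of 43 had been on day 0.

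Of 14 genes known from Schwann cells in the injury state, 4 of 9, 6 of 10 and 7 of 11 tested were at least 2-fold higher on days 1, 3 and 7, against 17.4%, 33.3% and 32.7% of all genes, and 2, 1 and 1 at least 2-fold lower. Their median log2 ratios were 0.46, 1.47 and 1.68, and with TMM 4, 5 and 6 were higher. Igfbp2, an insulin-like growth factor binding protein, had 4, 54, 437 and 83 UMIs, Gdnf, a factor for motor neurons, had 4, 28, 82 and 6, and Cdh2, encoding N-cadherin, had 60, 28, 732 and 636. At day 3 the nerve-rich spots, with 1.22% of all UMIs ranked, held 1 of the Igfbp2, 0 of the Gdnf and 6 of the Cdh2 UMIs. Of the 1005 Mbp UMIs of that day, 780 lay outside these spots too, so low counts inside do not show absence from nerve. Jun is the transcription factor of the repair state that many other cells use. Its CPM in nerve-rich spots could not be told apart from that elsewhere on any day. The ratios were 1.03, 0.96, 1.00 (0.77 to 1.27) and 0.92 on days 0, 1, 3 and 7. From day 0 to day 3 Jun rose from 49.9 to 93.2 CPM inside these spots and from 48.4 to 93.5 outside. Per UMI of the genes that define the spots, its day 3 log2 ratio to day 0 was 1.22 (0.62 to 1.83). Shh, Olig1, Gfap and Sox2, also known from that state, had at most 10 UMIs in any section.

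Ngfr binds neurotrophins, and of 10 tested genes of neurotrophins and their receptors 1, 3 and 6 were at least 2-fold higher on days 1, 3 and 7 and 1, 3 and 0 at least 2-fold lower. By CPM 17.4%, 33.3% and 32.7% of all genes were higher on these days, so the 3 of 10 on day 3 were near the share of all genes. With TMM, 1, 1 and 4 were higher and 3, 5 and 0 lower. Bdnf, a neurotrophin, had 17, 6, 60 and 36 UMIs on days 0, 1, 3 and 7, while Ntf3, another, had 109, 28, 64 and 126. Relative to depth, Bdnf was highest on day 3, with a log2 ratio of 1.46, and Ntf3 lowest, at -1.12. Maged1, which encodes an intracellular partner of p75, had log2 ratios of -0.43, 1.48 and 1.92.

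Axon and sheath genes were thinly covered. Of the axon list, Nefl, Nefm, Nefh and Snap25 had at most 11 UMIs in any section, and of the 5, 6 and 6 tested genes 3, 4 and 4 were at least 2-fold higher, among them Tubb3 at 4.99 on day 3. By TMM scaling 3, 2 and 3 were. Of all genes, 17.4%, 33.3% and 32.7% were at least 2-fold higher by CPM, and 13.4%, 19.8% and 15.7% with TMM. Of 5 perineurium genes, 3, 2 and 0 were at least 2-fold lower and 1 on each injured day at least 2-fold higher.

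**Figure D2:**
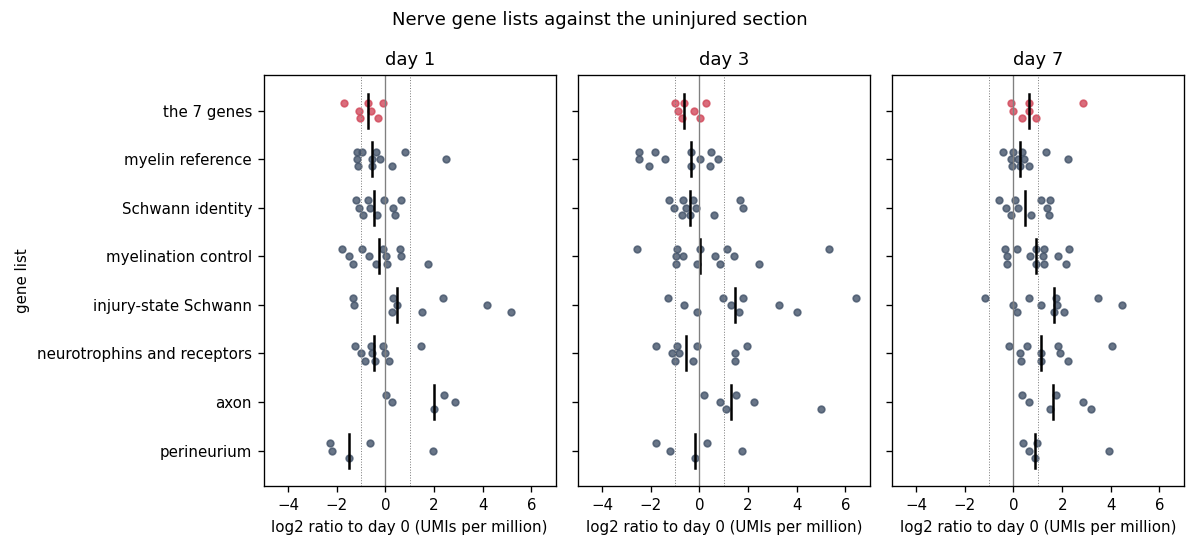
Log2 ratio to day 0 of CPM (horizontal axis) for each tested gene of 8 lists (rows) on days 1, 3 and 7. Points are genes, the black bar is the median and dotted lines mark 2-fold, and the 7 genes in red have medians of -0.73, -0.62 and 0.65.

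Genes of other cells that make these RNAs were checked. The oligodendrocyte genes Mobp, Opalin and Olig2, of the myelinating cells of the brain, were at 0 UMIs in all 4 sections, which allows up to 3 UMIs in each, and Mog had 3, 0, 0 and 3. Of the melanocyte genes Dct, Pmel, Mlana, Tyr and Tyrp1, for cells that also use Sox10, Tyr was at 0 in all sections, and the highest values were 24 and 20 UMIs of Pmel on days 3 and 7 and 9 of Mlana on day 7. The cartilage list (Col2a1, Acan and others) was higher on day 7 for 6 of 6 genes, with a median log2 ratio of 9.76.

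The place of each RNA in the section was read from nerve-rich spots. These were the 2% of spots, among those with at least 1000 UMIs, with the highest share of the myelin genes Mag, Ncmap, Cldn19, Drp2 and Gldn, none of them a member. They numbered 42, 48, 61 and 60 and held 183, 86, 129 and 185 UMIs of these 5 reference genes on days 0, 1, 3 and 7. These are few UMIs per spot, with medians of 3.5, 1, 1 and 2, so that on days 1 and 3 many spots were chosen on a single UMI. At day 3 Drp2 had 423 UMIs in the section and each other reference gene 25 to 88, so Drp2 weighed most in that choice. On day 0 Drp2 had 195 against 27 to 138. Perineurium genes were also 3.09 to 9.90 times higher there. These spots were shallower than the others on every day, with median depths of 15520.5, 4417.5, 8877 and 6961 UMIs against 21053, 6963, 16220 and 12299. Adipocyte genes were 0.51 times as high in them as elsewhere on day 0 and 2.47 to 3.24 times on the injured days. On day 1 smooth muscle genes were 4.14 times higher there, fibroblast genes 2.10 times and endothelial genes 2.04 times. The part of these other cells in the ratios was not tested.

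Mbp, Prx, Pmp22 and Sox10 were concentrated in nerve-rich spots on every day. Mbp CPM there was 19.4, 52.3, 23.3 and 45.0 times that of the other spots on days 0, 1, 3 and 7. From day 0 to day 7 Mbp went from 530 to 974 CPM inside these spots and from 27.3 to 21.6 CPM in the others. Its close section levels on these days thus joined a higher level inside to a lower one outside. Prx went from 87.0 to 128 CPM inside and from 4.46 to 4.31 CPM outside. How much nerve each section cut was not measured. Prx CPM was 19.5, 59.5, 21.6 and 29.6 times higher, and its interval met that of Mbp on days 0, 1 and 3. Pmp22, which other cells make too, was less concentrated than Mbp on each day, at 6.12, 25.9, 6.32 and 15.5 times. Sox10 was 9.69, 21.4, 22.8 and 16.0 times higher, resting on 13, 5, 15 and 22 UMIs inside. Ngfr was 1.72 (0.20 to 6.49), 7.27 (0.17 to 51.1), 7.15 (2.78 to 15.4) and 5.99 (2.34 to 12.8) times higher, from only 2, 1, 7 and 7 UMIs inside. Its interval was clear of 1 on days 3 and 7. Gap43 had 1, 0, 0 and 4 UMIs inside, of 38, 7, 58 and 68 counted.

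At day 3 none of the 58 Gap43 UMIs was in a nerve-rich spot, although those spots held 1.22% of the UMIs ranked. The upper end of the interval of that ratio was 5.30, below the ratios of Mbp, Prx and Sox10 on that day, and a smaller concentration was not detectable at this depth. At day 7 the ratio of Gap43 was 4.92 (1.30 to 13.2). S100b was little concentrated at day 7, with ratios of 8.88, 41.5, 6.21 and 2.31 on days 0, 1, 3 and 7, and 681 of its 701 UMIs lay in the other spots at day 7. In number, 5, 6, 6 and 7 of the 7 genes were at least 2-fold higher in nerve-rich spots, against 15.2%, 18.4%, 7.09% and 11% of all genes. Gap43 and Ngfr were the exceptions on day 0 and Gap43 on days 1 and 3.

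**Figure D3:**
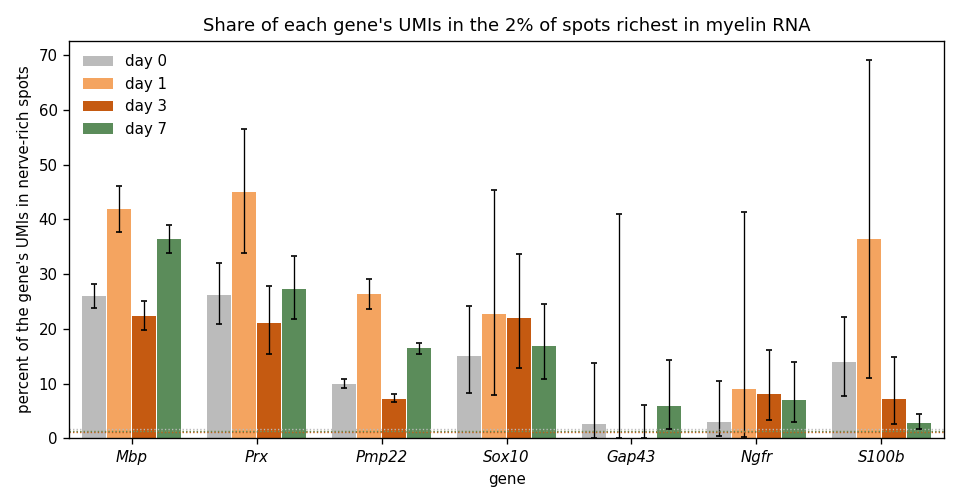
Percent of each gene's UMIs that lay in nerve-rich spots (bars, from 0) on each day, with exact 95% binomial intervals. Dotted lines show the percent of all UMIs in these spots, which was 1.22% to 1.78%. Mbp and Prx bars lie between 21.1% and 45%, Gap43 bars lie between 0 and 5.88%, and the S100b bar is at 2.85% on day 7.

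Inside nerve-rich spots the members can be set against Mbp, a ratio chosen after the values were seen that needs no scaling between sections. Prx could not be told apart from its day 0 level relative to Mbp, at 164, 155, 169 and 131 UMIs per 1000 Mbp UMIs on days 0, 1, 3 and 7. Its log2 ratios to day 0 were -0.09 (-0.71 to 0.52), 0.04 (-0.57 to 0.63) and -0.33 (-0.83 to 0.18), every interval crossing 0. With spots chosen by the Schwann cell list they were -0.51, -0.75 (-1.66 to 0.13) and -0.91 (-1.59 to -0.20), so day 7 was then below day 0. With the top 5% of spots in place of the top 2%, Prx at day 7 was at -0.51 (-0.93 to -0.10). Against the 5 reference genes Mbp was at 2262, 2709, 1744 and 2762 per 1000 reference UMIs, with log2 ratios of 0.26 (0.02 to 0.50), -0.38 (-0.62 to -0.14) and 0.29 (0.10 to 0.48), so it was lowest at day 3 here too. That reference rests on 86 to 185 UMIs, and Drp2, one of its genes, was higher at day 3 in the section.

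Sox10 had 31.4, 21.5, 66.7 and 43.1 UMIs per 1000 Mbp UMIs in nerve-rich spots. The log2 ratios were -0.55 (-2.39 to 1.03), 1.09 (-0.09 to 2.28) and 0.46 (-0.60 to 1.57), so day 3 was the highest but no day could be told apart from day 0. With spots chosen by the Schwann cell list, in which Art3 and Scn7a hold most UMIs, the values were -1.58 (-3.26 to -0.08), -0.79 (-2.27 to 0.59) and -1.38 (-2.55 to -0.19), with days 1 and 7 below day 0. The direction of Sox10 against Mbp at days 3 and 7 therefore differed with the choice of spots.

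Pmp22 was higher relative to Mbp on the later days. It had 1072, 1137, 1582 and 1746 UMIs per 1000 Mbp UMIs, with log2 ratios of 0.08 (-0.14 to 0.31), 0.56 (0.36 to 0.77) and 0.70 (0.54 to 0.87). Since Pmp22 was also counted elsewhere, the level of the other spots was taken off both genes, which left 946, 1115, 1392 and 1670 per 1000, in the same order of days. With spots chosen by the Schwann cell list the values at days 3 and 7 were -0.11 (-0.39 to 0.16) and 0.05 (-0.18 to 0.27). By the reference genes, the values at days 3 and 7 were 0.62 and 0.83 in the top 1% of spots and 0.47 and 0.52 in the top 5%. In spots with at least 5 reference UMIs they were 0.77 and 0.82. Each of these intervals lay above 0. The higher Pmp22 was therefore seen in spots chosen by the reference genes and not in those chosen by the Schwann cell list.

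**Figure D4:**
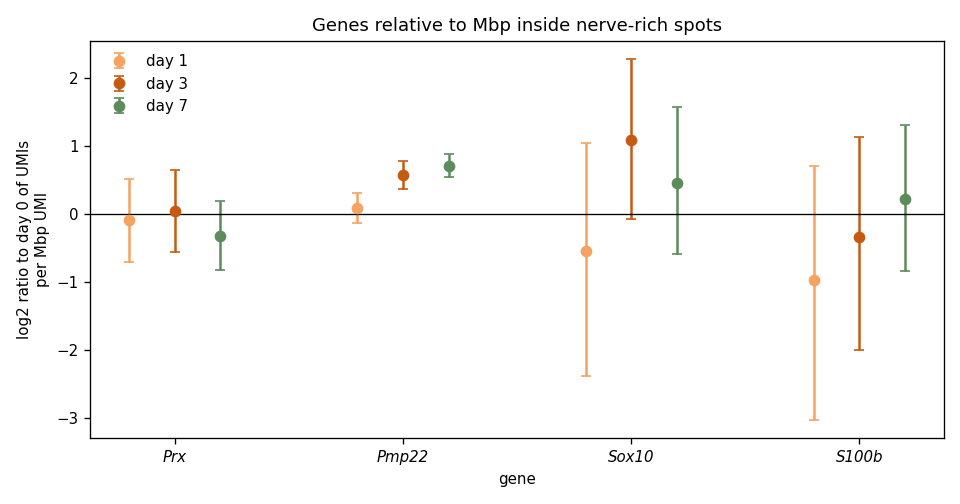
Log2 ratio to day 0 of UMIs per Mbp UMI in nerve-rich spots (vertical axis) for 4 of the genes on days 1, 3 and 7, with exact 95% intervals. Prx lies around 0, Pmp22 is at 0.56 on day 3 and 0.70 on day 7, and the Sox10 and S100b intervals cross 0 on each day. Gap43 and Ngfr are left out, having at most 4 and 7 UMIs inside.

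Sox10 was also concentrated where genes of the neuromuscular junction were. In the 2% of spots richest in Chrne, Chrna1, Colq and Musk, which encode receptor subunits and organisers of the motor endplate, Sox10 CPM was 14.0, 10.1, 11.8 and 9.93 times that of the other spots. Schwann cells are known to cap this junction without myelin. Of these spots 6 of 42, 4 of 48, 7 of 61 and 4 of 60 were nerve-rich too. Chrna1 weighed most in their choice at days 3 and 7. It had 11411 UMIs in the section at day 3, and each other gene of this list 333 to 639. At day 7 it had 5868 against 137 to 964, and on day 0 1571 against 47 to 903. Whether the spots of days 3 and 7 mark the junction as well as those of day 0 was not tested. A comparison added after the values were seen, without any nerve-rich spot, gave 11.3 (5.53 to 21.1), 15.1 (2.78 to 54.0), 11.9 (5.70 to 23.1) and 11.1 (6.53 to 18.0), resting on 12, 3, 12 and 21 UMIs inside. Mbp in the same spots was 5.58 (4.51 to 6.83), 4.14 (2.42 to 6.66), 2.31 (1.65 to 3.16) and 4.45 (3.48 to 5.61) times higher. At days 3 and 7 the interval of Sox10 lay above that of Mbp, while at days 0 and 1 they met. Prx there was 5.29 (2.96 to 8.84), 3.35 (0.39 to 12.9), 5.90 (3.39 to 9.72) and 2.16 (0.92 to 4.35) times higher. The intervals of Prx and Sox10 met on days 0, 1 and 3, so the split from myelin genes at day 3 was not seen for Prx.

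Gap43 and Ngfr were also compared between spots rich in genes of other cells. Gap43 CPM in the 2% of spots richest in fibroblast genes (Pdgfra, Dcn, Col3a1, Dpt, Prrx1) was 11.9 times that of the others on day 0, from 7 UMIs, and 3.53 and 3.64 times on days 3 and 7, from 5 and 8 UMIs, with 0 of its 7 UMIs there on day 1. At day 7 it was also 7.80 (3.22 to 16.4) times higher in spots rich in adipocyte genes, 6.49 (2.50 to 14.2) in those rich in smooth muscle genes and 6.03 (2.13 to 13.9) in those rich in endothelial genes, from 8, 7 and 6 UMIs. These intervals met that of the fibroblast spots. Spots were also split by their number of fibroblast UMIs, after the values were seen. At day 7 Gap43 was at 0.35, 0.88 and 3.45 CPM in spots with 0 to 9, 10 to 99 and at least 100 fibroblast UMIs, and at day 3 at 0.41, 0.71 and 2.03 CPM. The median depth rose along with these classes at day 7, from 4549.5 to 24003 UMIs per spot.

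Ngfr at day 7 was at 1.14, 1.77 and 4.91 CPM in spots with 0, 1 to 9 and at least 10 UMIs of the regenerating muscle genes Myh3, Myh8, Myog, Myod1 and Mymk, classes also set after seeing the data. The upper class, 311 spots, held 46 of the 99 Ngfr UMIs. The median depth rose along these classes too, from 7305 to 28639 UMIs per spot. In the 2% of spots with the highest share of these genes the ratio was 0.75, from 4 UMIs, so Ngfr did not follow their share.

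S100b at day 7 was high in spots rich in cartilage RNA and also in some others. In the 2% of spots richest in cartilage genes its CPM was 6.38 (4.82 to 8.30) times that of the others, and in those richest in tendon and perineurium genes it was 5.31 (4.08 to 6.81) and 5.29 (3.91 to 7.02) times. Spots were split by UMIs of the cartilage list, again after the values were seen. S100b was at 6.04 CPM in the 318 spots with none, 5.75 in the 1835 spots with 1 to 9, 27.1 in the 746 spots with 10 to 99 and 85.5 in the 133 spots with at least 100. The lower pair of classes could not be told apart, and each of the upper classes stood above the one before. Mbp was lower where cartilage RNA was high, at 87.2, 41.1, 13.8 and 15 CPM, and so was Prx, at 12.1, 6.83, 3.63 and 2.0 CPM. The upper classes held 381 and 171 of the 701 S100b UMIs. Without these spots the log2 ratio of S100b to day 0 was 1.33 (0.95 to 1.71) in place of 2.86, over 2153 spots. In nerve-rich spots S100b per 1000 Mbp UMIs was 33.8, 17.2, 26.7 and 39.1 on days 0, 1, 3 and 7. The day 7 log2 ratio there was 0.21 (-0.85 to 1.31), with 20 UMIs. After the level of the other spots was taken off, the values were 31.6, 17.1, 23.4 and 22.7, with day 7 below day 0. Without that step, the day 7 log2 ratio was 1.65 (0.90 to 2.46) in the top 5% of spots and -0.97 (-2.82 to 0.82) in the top 1%. With it, the top 5% had 28.1 and 64.3 per 1000 on days 0 and 7, and the top 1% had 25.3 and 6.37. The direction of S100b against Mbp therefore differed with the share of spots taken.

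**Figure D5:**
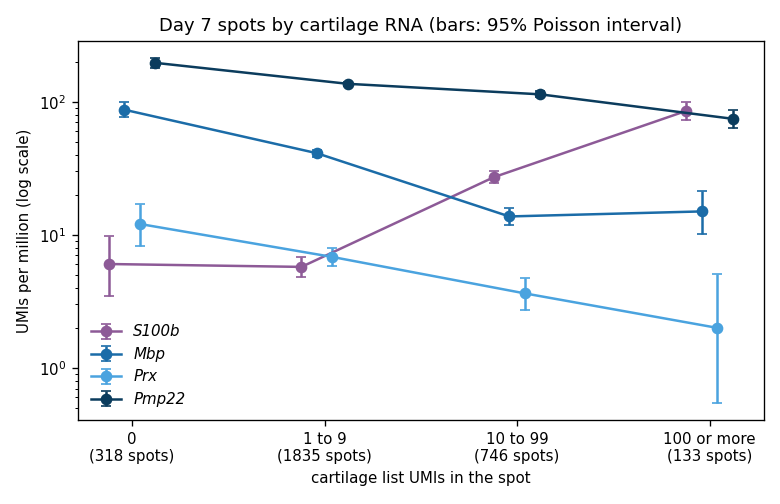
CPM at day 7 (log scale) of S100b, Mbp, Prx and Pmp22 in spots split by their number of cartilage UMIs, with exact 95% Poisson intervals and the number of spots under each class. S100b climbs from 6.04 to 85.5 while Mbp goes from 87.2 to 15.

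Likeness over spots was measured as the Pearson r of log2(UMIs per 10000 + 1) within a section, averaged over the 4 sections, among 10360 genes with at least 50 UMIs in every section. The genes most like Mbp were Sfrp5 (0.42, from 0.38 to 0.46 over the sections), Apod (0.30) and Cadm4 (0.28). For Prx they were Sfrp5 (0.31), Cadm4 (0.29) and Aatk (0.24), and for Pmp22 Apod (0.28), Sfrp5 (0.28) and Gsn (0.27). For Sox10 they were Sfrp5 (0.22), Cadm4 (0.21) and the junction gene Chrne (0.19). No mean r for Gap43 or Ngfr was above 0.09, which at these counts is no finding. For S100b the highest mean was 0.15 for Col1a1, from 0.04 to 0.36 over the sections, and Col1a2 reached 0.38 in a section. The sections held 12 to 701 S100b UMIs, so that mean mixes unlike counts. Spots of one section share a library, and both depth and neighbouring tissue enter these values.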

How the data were processed

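Visium sections of tibial muscle, 1 per day and 4 in all, were counted by the authors with Space Ranger (the table headers give spaceranger 1.2.0, and the methods name another version) against mm10 and deposited as filtered matrices of UMI counts per gene and spot, not normalized. All spots were kept and no doublets were sought, since spots are not cells. With Python 3.11.15, NumPy 2.4.6, SciPy 1.17.1 and pandas 2.3.3, counts were summed per section, given as CPM and set against day 0 as log2 ratios with exact conditional Poisson (Clopper-Pearson) 95% intervals. A gene below 3 UMIs in a section was entered at 3. Genes needed at least 10 UMIs over both sections to be counted as at least 2-fold lower or higher. The counting was tested on simulated data. Alternatives used TMM factors of edgeR 4.0.16 and size factors of DESeq2 1.42.0 (R 4.3.3), other totals, and other nerve-rich spots. The text names the 7 genes, genes of the lists, and for each of the 7 the 3 most alike. Some genes of the lists, one of them also of the nerve reference, are not reported here and were left out of every list, count and choice of spots. The members and lists were chosen with earlier results of these data known. Totals ranged from 16777832 to 56113066 UMIs per section, and at day 1 a gene with 10 UMIs has a wide interval. Promoter windows came from RefSeq (GRCm38.p6).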

Additional observations from a re-analysis of the deposited data

Results flagged for a closer look

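S100b moved in opposite directions on different days. Its log2 ratio to day 0 was 2.86 at day 7 and -1.69 at day 1, where 12 UMIs were counted. The difference between the days was not tested, since each day is 1 section. At day 7 the ratio was 1.33 without spots holding at least 10 cartilage UMIs.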

How the results depend on the processing

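No paired analysis was possible because each day is 1 section and the labels give no replicate numbers, and for the same reason no replicate could be left out. The number of the 7 genes at least 2-fold lower at day 3, 1 by CPM, was 4 with TMM, 4 with size factors and 2 with a total without mitochondrial, haemoglobin and adult myofibre genes. Pmp22 at day 7 turned from 0.36 to -0.25 with TMM and -0.28 with size factors. In the top 1% of spots Gap43 at day 7 had no UMI inside, a ratio of 0. In the top 5%, Mbp per reference UMI at day 7 turned to -0.076 and Pmp22 per reference UMI at day 1 to -0.057. With spots chosen by the Schwann cell list, Pmp22 per Mbp UMI at day 3 turned to -0.11. In alternatives chosen after seeing the data, Mbp at day 7 was at 0.34 without spots holding at least 10 cartilage UMIs and at 1.26 without spots holding any, which left 318 spots, where 3 of the 7 genes were at least 2-fold higher than on day 0. The cause of these changes was not tested. The number of the 7 genes at least 2-fold higher in nerve-rich spots stayed within 1.5 times under all 16 combinations of day and alternative. That margin is wide for counts of at most 7. Of the single ratios of these genes between nerve-rich and other spots, 55 stayed within their main interval, 56 left it and 1 reversed. Depth limits Gap43, Ngfr and S100b at day 1, with 7, 12 and 12 UMIs.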
